A study of Caenorhabditis elegans with 18 samples.

Results

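Messenger RNA of Caenorhabditis elegans in which ints-4 had been silenced was compared with that of worms in which numr-1 and numr-2 had been silenced, after both had been kept in 300 μM cadmium for 12 h. The comparison rests on 6 of the 18 libraries of the series, the 3 of ints-4(RNAi) with cadmium and the 3 of numr-1/2(RNAi) with cadmium, taken by their labels. All 6 groups of the series were wild-type N2 worms fed from the first larval stage on bacteria that make double-stranded RNA, moved at the late L3 stage to fresh RNAi plates with or without cadmium, and collected whole. The other groups were control(RNAi), fed bacteria with the empty vector pPD129.36, with and without cadmium, and both knockdowns without cadmium, and each group had 3 biological replicates. Worms are described as late L4 to young adult in the methods of the study and as gravid young adults in the labels. Feeding RNAi lowers a transcript in the whole animal without removing the gene, each library pools many worms and all tissues, and the labels call the numr-1/2 group a knockdown of numr-1. No deposited table sets these groups against each other, so the reads of each library were taken from the splicing tables and the pooled expression values were linked through the tables that share control(RNAi) without cadmium.

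Integrator is a complex of animal cells that cuts the 3′ ends of small nuclear RNAs (snRNAs), the RNA parts of the spliceosome, while they are being transcribed, and ints-4 encodes a subunit of its cleavage module. The study reports that numr-1 and its duplicate numr-2 have the same nucleotide sequence. These genes encode small nuclear proteins with a region like that of SR splicing factors, and cadmium induces them. At a 3′ splice site the intron ends and the next exon begins. Where a pair of 3′ splice sites lies close together, use of the upstream site leaves a few extra bases in the messenger RNA.

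With cadmium the targeted genes differed as labelled. The pooled value of ints-4, the scaled reads of the 3 libraries of a group together, was 594 in ints-4(RNAi) with cadmium and 1519 in numr-1/2(RNAi) with cadmium, 2.56-fold lower, and stood at 1200 in control(RNAi) with cadmium. The sum of numr-1 and numr-2 was 1359 in ints-4(RNAi) with cadmium, 101 in numr-1/2(RNAi) with cadmium and 370.9 in control(RNAi) with cadmium. That sum was 13.5-fold higher in ints-4(RNAi) with cadmium than in numr-1/2(RNAi) with cadmium. Without cadmium it was 30.4 in numr-1/2(RNAi), 27.2 in control(RNAi) and 488.7 in ints-4(RNAi), so the sum showed no lowering by numr-1/2(RNAi) there. Values of the separate copies, 754 against 48 for numr-1 and 605 against 53.0 for numr-2, are uncertain because their reads can be shared. Of the 12 Integrator subunits, ints-4 itself was the single gene at least 2-fold lower, and none was 2-fold higher.

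Markers of adult reproduction also differed between the groups. The summed value of the 6 vitellogenins, yolk proteins made by the adult intestine, was 9910 in ints-4(RNAi) with cadmium and 72100 in numr-1/2(RNAi) with cadmium. All 11 oocyte and eggshell markers were at least 2-fold lower in ints-4(RNAi) with cadmium, with a sum of 10200 against 33400, and none of them was at 0 in either group. Of 50 measured sperm markers 16 were lower and 1 was higher. Body wall muscle, neuron and intestine markers, 3 of each, held no gene that differed 2-fold. In control(RNAi) with cadmium the sums were 15100 for vitellogenins and 8080 for oocyte and eggshell markers. In whole worms, fewer cells of a type and less RNA per cell cannot be told apart, and the part of these markers in the results that follow was not tested.

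The 2 groups shared 2526 splicing events in their tables, of which 2124 could be read in every library. Reads over these events came to between 741596 and 905492 per library in ints-4(RNAi) with cadmium and to between 941151 and 1130036 in numr-1/2(RNAi) with cadmium. The median event had 108 to 218 reads in a library, so small differences at weakly covered events were not detectable at this depth. An event is a pair of forms of a transcript, and its inclusion level is the percentage of reads, corrected for the length of the forms, that show the longer form or, for mutually exclusive exons, the exon nearer the 5′ end. Between libraries of a group, reads varied more than counting error, with chi-square per degree of freedom of 3.72 in ints-4(RNAi) with cadmium and 3.64 in numr-1/2(RNAi) with cadmium.

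Inclusion levels were mostly lower in ints-4(RNAi) with cadmium than in numr-1/2(RNAi) with cadmium where they differed. Of 1772 events tested in 1234 genes, 189 (10.7%) were called at an adjusted p below 0.05 by a quasi-binomial test with dispersion moderated in limma, in 159 genes. Of these, 147 (8.30% of events tested) were lower and 42 (2.37%) were higher. The median size of a called difference, without its sign, was 14.7 percentage points. Over all events tested the median of the signed difference was -0.52 points, with 744 events higher and 1027 lower. The libraries of the groups did not overlap at 403 events (22.7%), of which 270 (15.2% of events tested) were lower in ints-4(RNAi) with cadmium, and at 171 of the 189 called events. At an unadjusted p below 0.05 there were 365 events. The call depends on the test. Limma fitted to the log2 of inclusion over skipping reads, with a common variance prior for all events, called 0 events, with 268 at an unadjusted p below 0.05, and limma with a variance trend over the counting error, chosen after the data were seen, called 151, of which 145 were among the 189.

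Alternative 3′ splice sites held the largest share of calls and moved in 1 direction. Of 394 tested, 84 (21.3%) were called, and all 84, in 79 genes, used the upstream site less in ints-4(RNAi) with cadmium. Their median difference was -16.5 points, and over all 394 it was -5.25 points. In contrast, 11 of 173 alternative 5′ splice sites (6.36%), 22 of 122 pairs of mutually exclusive exons (18%), 5 of 99 retained introns (5.05%) and 67 of 984 cassette exons (6.81%) were called, each type with members in both directions. The medians of these types lay between -1.44 and -0.06 points. The untrended limma fit called 0 of the 84, and the trended one called 75 alternative 3′ sites lower, 71 of them among the 84.

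The distance between the sites set the called events apart from the rest of their type. All 84 were pairs 4 to 18 bases apart, of which 311 were tested (27% called), and their median difference was -8.02 points with 254 of them lower and 57 higher. None of the 83 pairs at other distances was called, and their median was 0.07 points. Among pairs 1 to 3 bases apart, 0 of 29 were called and the median was 0.49. Among pairs 19 to 100 bases apart, 0 of 37 were called and the median was 0.92. Pairs exactly 6 bases apart were the most frequent class with 151 events and 36 calls, and pairs exactly 9 bases apart had 35 calls among 93 events (37.6%) with a median of -10.3 points. At 12 bases apart 6 of 26 events were called. Where the distance was a multiple of 3, so that the reading frame is kept, 79 of 278 events (28.4%) were called, against 5 of 33 (15.2%) elsewhere, a difference that was not tested. Most of the 311 pairs, 297, lay in coding sequence, and 81 of these were called. Among alternative 5′ sites 1 to 18 bases apart, 0 of 70 were called and the median was -0.18 points, and a difference between the types of site was not tested. These distance classes were set with the values known and are given as a description.

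**Figure D1:**
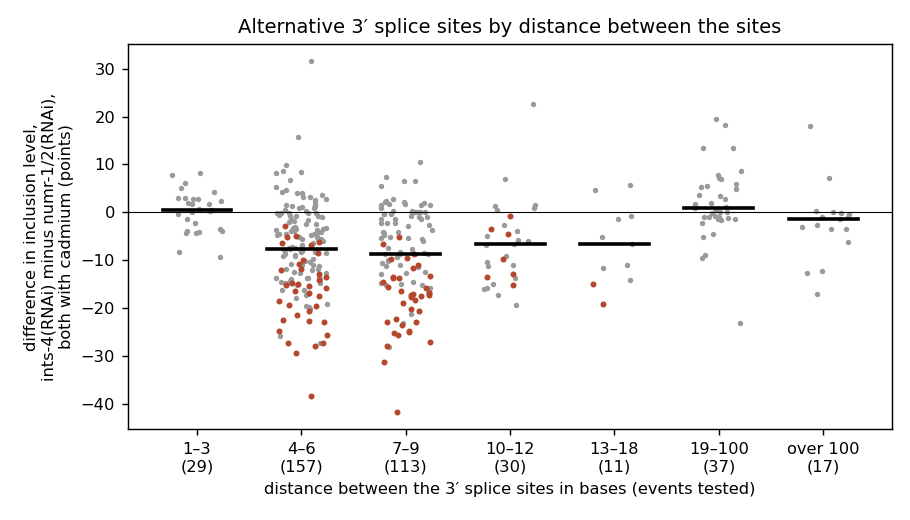
Difference in inclusion level of each tested alternative 3′ splice site (vertical axis, percentage points, ints-4(RNAi) minus numr-1/2(RNAi), both with cadmium) by the distance between the sites in bases (horizontal axis, number of events below each class). Points are events, red points are those called at an adjusted p below 0.05, and black bars are medians. The 84 called events all lie below 0 and between 4 and 18 bases, while the 29 pairs at 1 to 3 bases have a median of 0.49.

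Pairs that were used at middle levels in control(RNAi) without cadmium had the wider gaps in percentage points. Levels are bounded at both ends, which limits gaps in points for rarely or almost always used sites. Relative changes were not compared between these classes. Among pairs 4 to 18 bases apart, the median difference was -10.8 points where the upstream site took 10 to 30% in control(RNAi) and -11.5 where it took 30 to 70%. It was -2.87 where the upstream site took under 10%, with 10 of 41 called and median levels of 2.8% against 5.8%. At 70 to 90% it was -4.34 with 4 of 24 called, and over 90% it was -0.09 with 0 of 14 called. Over the 297 of these pairs read in all 6 groups, the median level was 26.7%, 25.3% and 25.7% in the 3 libraries of ints-4(RNAi) with cadmium and 37.9%, 39.5% and 38.1% in those of numr-1/2(RNAi) with cadmium. No library of either group reached the range of the other, and 245 of the 297 events had a lower mean in ints-4(RNAi) with cadmium. Set beside these, the group median was 22.1% in control(RNAi) with cadmium, 31.6% in control(RNAi), 30.2% in ints-4(RNAi) and 45.2% in numr-1/2(RNAi) without cadmium. The level in ints-4(RNAi) with cadmium was thus between those of control(RNAi) with and without cadmium, and the level in numr-1/2(RNAi) with cadmium was above both.

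**Figure D2:**
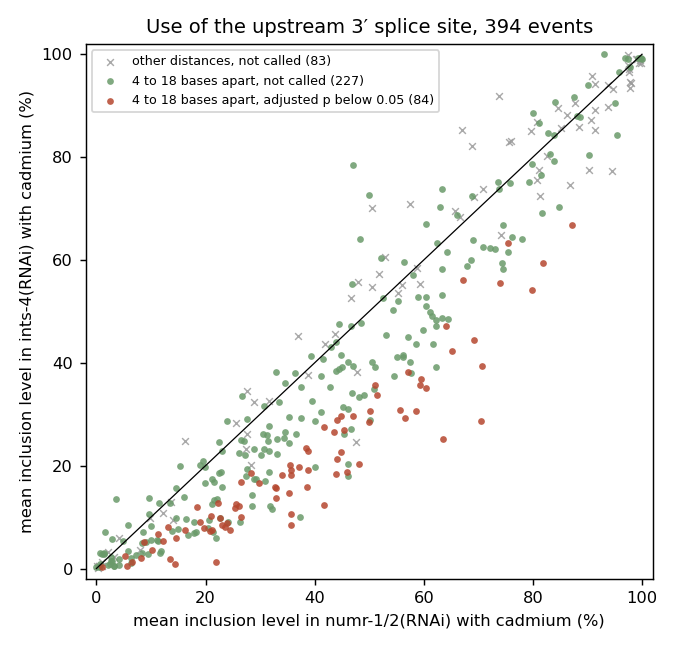
Mean inclusion level of the 394 tested alternative 3′ splice sites in numr-1/2(RNAi) with cadmium (horizontal axis, %) and in ints-4(RNAi) with cadmium (vertical axis, %), each a mean of 3 libraries, with the line of equal levels. Red points are the 84 called events, green points are other pairs 4 to 18 bases apart and grey crosses are pairs at other distances. The red points lie below the line and spread over most of the range of levels.

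Named 3′ sites were chosen by the size of their difference among called events whose groups did not overlap. Their size, call and lack of overlap are thus a description. In Y67H2A.10 (chromosome IV, bases 13286103 to 13286111 of the coding exon are the optional part, 9 bases), the upstream site took 39.6%, 22% and 24.7% of reads in the 3 libraries of ints-4(RNAi) with cadmium and 60.3%, 74.5% and 76.7% in numr-1/2(RNAi) with cadmium, a difference of -41.7 points (adjusted p = 1.34e-05). The lowest library of one group stood above the highest of the other. Y52B11A.2, listed as impt-1 in the name table and related to the mammalian translation regulator IMPACT, has sites 6 bases apart on chromosome I (10968721 to 10968726). Its levels were 32.7%, 23.1% and 19.5% in ints-4(RNAi) with cadmium against 62.7%, 64.2% and 63.9% (adjusted p = 5.31e-06). In Y17G7B.18 (chromosome II, 12107527 to 12107535, 9 bases) the levels were 36.4%, 41.2% and 40.5% against 67.1%, 74.0% and 71.1% (adjusted p = 4.5e-06).

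Further 3′ sites named by the same rule had the same direction, as did all 84 called alternative 3′ sites. In saps-1, a regulatory subunit of protein phosphatase 6, sites 6 bases apart on chromosome II (11298257 to 11298262) gave upstream levels of 18.2%, 9.1% and 9.7% in ints-4(RNAi) with cadmium and 47.0%, 33.4% and 44.9% in numr-1/2(RNAi) with cadmium (adjusted p = 0.00103). In rfp-1, a RING finger ubiquitin ligase, sites 9 bases apart on chromosome III gave 29.4%, 20.6% and 41.6% against 58.3%, 61.5% and 56.0% (adjusted p = 2.66e-06). In eri-9, which acts in the endogenous small interfering RNA pathway, sites 6 bases apart gave 25%, 13.2% and 22.5% against 61.1%, 41.7% and 41.8% (adjusted p = 0.00183). Lack of overlap between the groups was a condition for naming these events. The kinase gene pak-2 had 13.1%, 2.8% and 9.4% against 44.4%, 39.7% and 23.1% at sites 6 bases apart (adjusted p = 0.00547), with as few as 32 reads in a library. The call in eri-9 was lost without ints-4(RNAi) with cadmium library 2 (a difference of -24.4 points), and that in pak-2 without library 2 of either group (-24.5 and -25.3 points).

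Alternative 3′ sites of M4.1, R02F2.1 and cdka-1 were read as well, as genes that the study followed. In M4.1 (slmp-1 in the name table), sites 6 bases apart gave 45.5%, 28.4% and 49.4% in ints-4(RNAi) with cadmium and 55.2%, 57.4% and 52.8% in numr-1/2(RNAi) with cadmium. The libraries did not overlap, but the difference of -14 points missed the threshold (adjusted p = 0.122). In R02F2.1, sites 6 bases apart gave 6.6%, 7.5% and 10.3% against 15.9%, 12.8% and 10.9% from 1854 to 2814 reads in a library, a difference of -5.1 points (adjusted p = 1.13e-05). In cdka-1, which encodes an activator of the kinase CDK-5, sites 30 bases apart gave 69.5%, 89.3% and 46.4% against 40.8%, 66.9% and 92.4%. With 12 to 34 reads in a library these groups overlapped widely (adjusted p = 0.866).

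Cassette exons differed in both directions, 30 higher and 37 lower in ints-4(RNAi) with cadmium. In tat-2, a P4-type ATPase that moves lipids between the leaflets of membranes, a coding exon of 118 bases on chromosome IV (4828527 to 4828644) was included at 83.4%, 49.0% and 66.2% in ints-4(RNAi) with cadmium and at 20.8%, 21.7% and 25.8% in numr-1/2(RNAi) with cadmium (adjusted p = 0.000341). In tag-241 an exon of 129 bases on chromosome X was included at 92.6%, 74.1% and 100% against 31.4%, 36.8% and 64.4% (adjusted p = 0.000168). In the riboflavin transporter gene rft-2 an exon of 39 bases on chromosome V was included at 43%, 40.0% and 58.4% against 8.2%, 2.3% and 11.2% (adjusted p = 0.00189). The rft-2 exon stood at a mean of 8.4% in control(RNAi) with cadmium, near the level of numr-1/2(RNAi) with cadmium. These exons rest on 29 to 124 reads in a library. The call in tat-2 was lost without ints-4(RNAi) with cadmium library 1 (a difference of 34.9 points), and that in tag-241 missed the threshold in the trended limma fit (adjusted p = 0.0547).

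Further cassette exons differed in either direction. C06G8.3, listed as zipt-2.1 and a member of the ZIP family of zinc transporters, included an exon of 78 bases at 75.1%, 97.8% and 70.9% in ints-4(RNAi) with cadmium and 43.5%, 50.5% and 51.2% in numr-1/2(RNAi) with cadmium (adjusted p = 0.00887). The phospholipase C beta gene egl-8 included an exon of 318 bases at 71.9%, 78.7% and 86.8% against 48.6%, 43.5% and 57.3% (adjusted p = 0.0182). Both calls were lost in the trended limma fit (adjusted p = 0.0751 and 0.0989) and without ints-4(RNAi) with cadmium library 2 (24.6 and 29.6 points), and that in egl-8 also without library 1 of this group (32.9 points) or numr-1/2(RNAi) with cadmium library 2 (26.2 points). Lower inclusion was found for blmp-1, a zinc finger transcription factor of developmental timing. Its exon of 48 bases on chromosome I (10413362 to 10413409) stood at 31.9%, 48.8% and 48.6% against 82.2%, 70.2% and 78.4% (adjusted p = 0.000101), and control(RNAi) with cadmium stood at a mean of 80.8%. An exon of 156 bases of T19A5.3 stood at 52.5%, 58.9% and 56.0% against 85.6%, 87.5% and 90.7% (adjusted p = 3.37e-06). The sodium-calcium exchanger gene ncx-2 stood at 66.9%, 55.6% and 51.2% against 83.9%, 85.6% and 81.3% for an exon of 96 bases (adjusted p = 0.00416). Exons whose length is a multiple of 3 were called in 50 of 676 cases and others in 17 of 308, and no class of exon length had a median beyond 1 point from 0.

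**Figure D3:**
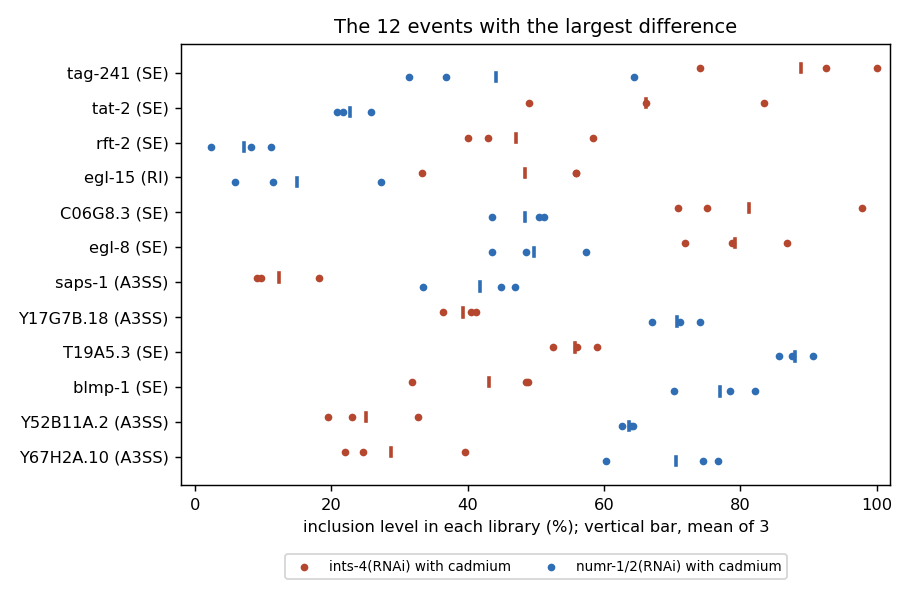
Inclusion level in each of the 6 libraries (horizontal axis, %) for the 12 called events with the largest difference among those whose groups do not overlap and whose libraries each hold 20 reads or more. Red points are ints-4(RNAi) with cadmium, blue points numr-1/2(RNAi) with cadmium, and vertical bars the means of 3 libraries (A3SS, alternative 3′ site; SE, cassette exon; RI, retained intron). In each event the red and blue points are apart, most narrowly for the retained intron of egl-15, 33.3% against 27.3%.

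Mutually exclusive exons differed in 22 pairs, 6 higher and 16 lower. In lev-11, which encodes tropomyosin of muscle thin filaments, the first of a pair of mutually exclusive exons of 118 bases (chromosome I, 14624544 to 14624661 in place of 14624303 to 14624420) was used at 81.5%, 79.9% and 75.9% in ints-4(RNAi) with cadmium and 48.5%, 51.8% and 56.5% in numr-1/2(RNAi) with cadmium. That difference of 26.9 points came from 1747 to 2408 reads in a library (adjusted p = 8.1e-62), and control(RNAi) stood between the groups at means of 69.0% with and 67.7% without cadmium. In egl-15, a fibroblast growth factor receptor, 3 events of different types were called. Its first mutually exclusive exon was used at 93.7%, 97.9% and 97.5% against 76.7%, 65.6% and 60.8% (adjusted p = 9.53e-05), the longer form of an alternative 5′ site at 2.6%, 7.0% and 4.1% against 37.7%, 21.6% and 28.0% (adjusted p = 0.00175), and an intron of 54 bases was retained at 55.9%, 55.9% and 33.3% against 11.5%, 5.9% and 27.3% (adjusted p = 0.0165). The call of the intron was lost in 4 of 6 fits, those without library 1 or 2 of either group (differences of 29.0 to 31.8 points). The alternative 5′ site and the intron lie beside each other in the gene and may share reads.

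Retained introns and 5′ sites gave few calls. In ZK180.5 the longer form of a 5′ site, 135 bases more, took 55.3%, 65.7% and 71.4% of reads in ints-4(RNAi) with cadmium and between 89.8% and 91.2% in the 3 libraries of numr-1/2(RNAi) with cadmium (adjusted p = 1.24e-42). The event had 761 to 849 reads in libraries of the first group and 8002 to 8724 in the second, so the gene differed in reads as well. In acdh-1, an acyl-CoA dehydrogenase of the propionate shunt, an intron of 46 bases was retained at 0.3%, 0.0% and 0.6% against 1.4%, 2.2% and 0.8% (adjusted p = 0.00146, and 0.0556 in the trended limma fit). Of the 189 called events, 50 lay in 20 genes with more than 1 called event, and the events had 183 distinct alternative parts, so they are not fully independent of each other.

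The same difference was examined without cadmium, in libraries of which none entered the comparison above. Of 182 called events that could be read there, 172 had the same sign. The share with the same sign over all events was not worked out, so this count is not particular to called events. A test of the interaction of knockdown and cadmium over 12 libraries called 5 of 1497 events (0.334%), with 150 at an unadjusted p below 0.05. For R02F2.1 the gap in use of the upstream 3′ site was -5.1 points with cadmium and -26.4 without (interaction adjusted p = 2.27e-06). In numr-1/2(RNAi) the mean level of this site was 13.2% with and 37% without cadmium, and in ints-4(RNAi) it was 8.1% and 10.6%.

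Pooled expression had 1 value per gene and group, so these differences have no replicate check and no p. Among the 18479 genes detected in each of the 6 groups, 2575 (13.9%) were at least 2-fold higher in ints-4(RNAi) with cadmium than in numr-1/2(RNAi) with cadmium and 1809 (9.79%) at least 2-fold lower. At 4-fold the counts were 879 (4.76%) and 742 (4.02%), and the median of all genes was 0.01 on the log2 scale. Linking through control(RNAi) without cadmium moved every gene up by a median of 0.10 on the log2 scale against the direct ratio of the values, and the direct ratio gave 2242 higher and 2068 lower. A value printed here is on the scale of control(RNAi) without cadmium, and the ratio of a gene's values is its linked fold difference.

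The genes with the greatest difference were nearly silent in 1 of the groups. The dystroglycan-related gene dgn-2 had a value of 723 in ints-4(RNAi) with cadmium and 0.615 in numr-1/2(RNAi) with cadmium. The cyclic nucleotide-gated channel gene cng-1 had 6892 against 20.5, and C17G10.6 had 4937 against 24.5, although a gene on the other strand overlaps each of them and strand is not stated for the counting. All 3 were also high in ints-4(RNAi) without cadmium, at 895, 7988 and 6598, and at 30.6 or less in control(RNAi) with cadmium. The chemoreceptor genes str-68 and str-148 had 345 against 0.899 and 977 against 4.84. F08H9.3, at 998 against 1.22, overlaps an snRNA gene, and F25H2.15, at 1222 against 1.52, is a small nucleolar RNA gene. Values near 1 rest on very few reads, and folds against them are imprecise.

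The 8 lowest genes had values of 22.3 or less in ints-4(RNAi) with cadmium. The uterine genes ule-3 and ule-5 had values of 22.3 against 1898 and 5.46 against 543, 85.1-fold and 99.6-fold lower in ints-4(RNAi) with cadmium. The chitinase-like gene cht-3 had 7.88 against 706, and the collagen gene col-135 had 1.71 against 164. ZK813.3 had 1.69 against 395. In control(RNAi) with cadmium these 5 genes lay between the knockdowns, ule-3 at 380.2 and cht-3 at 164.

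Transcripts from snRNA genes were found almost only where ints-4 was silenced. Mature snRNAs carry no poly(A) tail, and the libraries were primed with oligo(dT). Of 129 genes annotated as snRNA, which include those of the SL2 spliced leader RNAs, 56 were above 0 in ints-4(RNAi) with cadmium and 15 in numr-1/2(RNAi) with cadmium, and their summed value was 7130 against 27.2. The sum was 12000 in ints-4(RNAi), 15.1 in numr-1/2(RNAi), 49.1 in control(RNAi) with cadmium and 26.2 in control(RNAi). The 30 of them with a spliced leader name (sls-) summed to 1650 in ints-4(RNAi) with cadmium. All were listed at 0 in numr-1/2(RNAi) with cadmium. Single genes followed the sum: C47F8.9 (chromosome I, 12285746 to 12285932) had 2340 against 0.608, smy-1 of the SmY RNA class had 410 against 5.06, and sls-2.12 (chromosome IV, 5261913 to 5262022) had 763 where numr-1/2(RNAi) with cadmium was listed at 0. There were 37 genes listed at 0 in numr-1/2(RNAi) with cadmium and at 100 or more in ints-4(RNAi) with cadmium, 11 of them snRNA genes, and 0 genes the other way round.

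Protein-coding genes that begin just behind an snRNA gene on the same strand were mostly higher too. Of 9 such genes within 1000 bases and free of overlap with an snRNA gene, 7 (77.8%) were at least 2-fold higher in ints-4(RNAi) with cadmium, none was lower, and the median log2 difference was 2.47. The share fell with distance, to 3 of 8 genes at 1 to 2 kilobases, 10 of 30 at 2 to 5, 15 of 50 at 5 to 10 and 11 of 84 (13.1%) at 10 to 20 kilobases. Beyond 20000 bases it was 12.5% of 16480 genes with a median of 0, and over all 16705 protein-coding genes it was 12.8%. Where the snRNA gene lay within 1000 bases on the opposite strand only, 11 of 34 genes (32.4%) were higher and 4 lower. Where it lay within 1000 bases behind the end of the gene on the same strand, 5 of 16 (31.2%) were higher and 3 lower. Among genes under 10 in numr-1/2(RNAi) with cadmium, 2 of 2 within 1000 bases were higher, beside 43.1% of 1828 beyond 20000 bases. At 10 or more, 5 of 7 were higher, beside 8.72% of 14652. This arrangement was looked at after the values were seen, and it is given with no test.

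The neighbours differed widely in size. Y75B8A.23 begins 85 bases behind sls-2.8 on chromosome III and had a value of 6148 in ints-4(RNAi) with cadmium, 83.7 in numr-1/2(RNAi) with cadmium and 41.2 in control(RNAi) with cadmium. W04G5.8 begins 295 bases behind the snRNA gene W04G5.11, which itself had 345 against a listed 0, and had 2159 against 7.76. H41C03.3, 803 bases behind sls-2.1, had 7513 against 442. All of these were as high or nearly so in ints-4(RNAi) without cadmium, at 5703, 2289 and 10380. The chemoreceptor gene srz-97, 323 bases behind F08H9.11, had 690 against 3.53, H27M09.5, 178 bases behind H27M09.6, had 989 against 237, and the glucuronosyltransferase gene ugt-40, 753 bases behind F10D2.13, had 257 against 46.3.

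**Figure D4:**
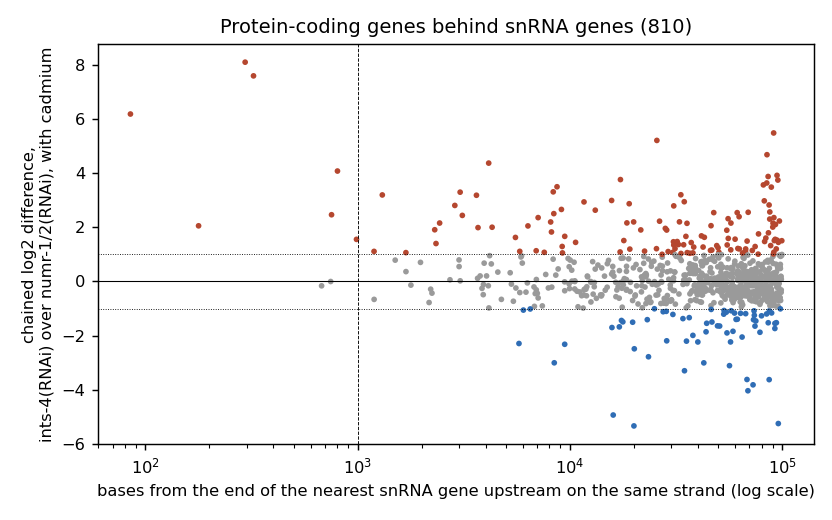
Linked log2 difference in pooled expression of 810 protein-coding genes (vertical axis, ints-4(RNAi) over numr-1/2(RNAi), both with cadmium) by the distance from the end of the nearest snRNA gene upstream on the same strand (horizontal axis, bases, log scale). Red and blue points are at least 2-fold higher and lower, and the dashed line marks 1000 bases. Left of the dashed line 7 of 9 genes are red and 0 are blue.

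Stress response lists differed among themselves, beside 13.9% of all genes higher and 9.79% lower. In the metal response list 5 of 18 genes were at least 2-fold higher and none was lower, with a median log2 difference of 0.53, but 2 of the 5 are numr-1 and numr-2. The metallothionein gene mtl-1 had 8674 against 4122, with control(RNAi) with cadmium between them at 6337, and cdr-7, of the cadmium-responsive family, had 601 against 202. Of 25 cytosolic chaperone genes 4 were higher and 0 lower, a share of higher genes near that of all genes, among them hsp-12.3, a small heat shock protein gene, at 719 against 97.7. No gene of 15 in the unfolded protein response of the endoplasmic reticulum differed 2-fold, and 1 of 10 in that of mitochondria did, ubl-5 at 1322 against 648. By the direct ratio mtl-1 and ubl-5 stood just under 2-fold, at 0.97 and 0.93 on the log2 scale.

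In detoxification families more genes were higher than lower. Of 66 UDP-glucuronosyltransferases, which join sugar acids to foreign compounds, 21 were higher and 3 lower (median 0.47), and ugt-39 had 1284 against 344. The ugt-37 value of 715 against 45.8 is uncertain because the gene overlaps the snRNA gene F10D2.13. Of 47 glutathione S-transferases 13 were higher and 3 lower, with gst-24 at 6256 against 999.8 (6.26-fold) and gst-30 at 133 against 376. The 69 cytochrome P450 genes held 17 that were higher and 6 that were lower, with cyp-13A8 at 101.7 against 15.4 and cyp-37B1 at 8.79 against 115. Family members are alike in sequence, and the sources do not say how shared reads were divided among them.

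Genes of the intracellular pathogen response were higher as a group. Of 31 pals genes, a worm family induced by microsporidia and viruses, 17 were at least 2-fold higher and 0 lower, with a median log2 difference of 1.24. The values of pals-27 were 155 in ints-4(RNAi) with cadmium, 6.58 in numr-1/2(RNAi) with cadmium and 6.79 in control(RNAi) with cadmium, and pals-17 had 1300, 308.5 and 404. Without cadmium the same family had a median of 3.47, with 21 higher and 2 lower. Other infection genes were more often higher, 15 of 50 against 5 lower, beside 13.9% of all genes higher and 9.79% lower. The saposin-like gene spp-9 had 985 against 200.6 and irg-6 had 47.4 against 353. Among 154 C-type lectins 21 were higher, a share near that of all genes, and 30 were lower. F-box genes of the fbxa family included fbxa-71 at 531 against 14.3 and fbxa-42 at 7.59 against 207. Of 140 fbxa genes 24 were higher and 9 lower, not far from the shares over all genes.

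Core histone genes, whose messages normally end without a poly(A) tail, were higher in 21 of 48 cases and lower in 1, with a median of 0.78. The histone genes his-5 and his-6 had 347 against 35.3 and 129 against 20.1. Near-identical copies make single histone values uncertain. Ribosomal protein genes had a median of 0.51 and a range of -0.84 to 1.10, with 2 of 81 genes 2-fold higher. These 2, rpl-24.2 at 1.10 and rpl-41.2 at 1.08, passed the threshold by about the 0.10 that linking added or less. The Sm core list of snRNP proteins had a median of 0.55 with 1 of 21 higher, snr-7 at 6735 against 3233 (0.96 on the log2 scale by the direct ratio, under 2-fold). Among 58 SR proteins and 3′ splice site factors the median was 0.04 and 1 gene differed 2-fold, ptb-1, a polypyrimidine tract binding protein, at 416 against 1031. Long intergenic RNA genes were higher in 42 of 98 cases and lower in 5, and this was not particular to them. Other genes annotated as non-coding RNA were higher in 105 of 315 cases and lower in 46. Small nucleolar RNA genes were higher in 18 of 53 cases and lower in 6. Of 16705 protein-coding genes, 2135 (12.8%) were higher and 1589 lower.

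Cuticle and reproductive genes were lower. Of 160 cuticle collagens 82 were at least 2-fold lower and 27 higher in ints-4(RNAi) with cadmium, with a median of -1.11, and 62 were at least 4-fold lower. The collagen genes col-119, col-7 and col-81 had 259.6 against 10570, 89.2 against 3520 and 1290 against 40310, with control(RNAi) with cadmium at 1549, 843 and 8340. Of 53 hedgehog-related genes, whose products are secreted by the epidermis, 23 were lower and 11 higher, with grd-6 at 254 against 4421. Moulting genes were mixed, 12 of 43 lower and 7 higher, and the patched-related genes ptr-3 and ptr-18 had 97.7 against 667 and 913 against 4815. Transthyretin-like genes were more often higher, 19 of 57 against 9, yet ttr-14 had 329 against 11260.

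The reproductive lists were mostly lower. Of 44 oocyte and eggshell genes 30 were lower and 0 higher (median -1.22). The eggshell barrier genes perm-2 and perm-4 had 36.7 against 1278 and 100.4 against 3441, and meg-1, of germ granules, had 29.9 against 374. Of 6 vitellogenins 5 were lower (median -2.99), with vit-6 at 3821 against 32110 and vit-2 at 4066 against 30430. In control(RNAi) with cadmium vit-6 had 6501 and vit-2 had 5925, and numr-1/2(RNAi) with cadmium was thus the highest of the groups with cadmium. The median over vitellogenins was -0.66 for ints-4(RNAi) with cadmium over control(RNAi) with cadmium and 1.99 for numr-1/2(RNAi) with cadmium over it. Sperm genes were lower by a smaller amount, with 17 of 86 lower, 3 higher and a median of -0.77. For collagens the same medians over control(RNAi) with cadmium were -1.22 and 0.19.

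**Figure D5:**
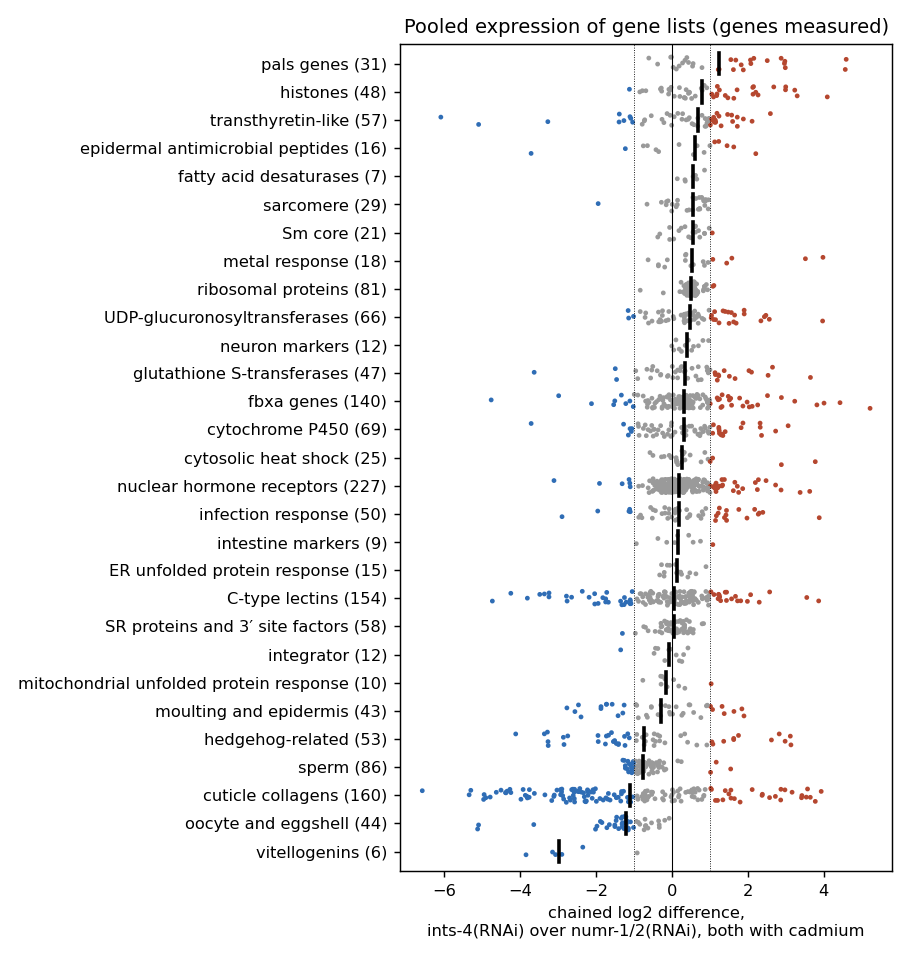
Linked log2 difference in pooled expression (horizontal axis, ints-4(RNAi) over numr-1/2(RNAi), both with cadmium) of the members of each gene list, with the number measured. Points are genes, red at least 2-fold higher and blue at least 2-fold lower (dotted lines), and black bars are medians. Medians run from -2.99 for vitellogenins to 1.24 for pals genes.

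Reads over splicing events gave a measure of expression with a spread between libraries, for 1243 genes with an event that had at least 10 reads in every library. By limma with a mean-variance trend on log2 scaled reads, 235 genes (18.9%) were called, 129 higher (10.4%) and 106 lower (8.53%), with 425 at an unadjusted p below 0.05. The count was 149 without numr-1/2(RNAi) with cadmium library 2 and 146 without library 3, with 61 and 58 of these lower, and 127 genes were called whichever library was left out. Of the 235 called genes, 234 had the same sign in the pooled values. Of the 159 genes with a called splicing event, 36 (22.6%) were also called here, close to the 18.9% of all genes.

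Lower genes included members of the hedgehog-related and collagen lists. The hedgehog-related gene grl-16 had scaled reads of 1240, 1600 and 1980 in ints-4(RNAi) with cadmium and 16700, 13900 and 16300 in numr-1/2(RNAi) with cadmium, a log2 change of -3.30 ± 0.17 (SE, adjusted p = 1.85e-07). The collagen gene col-71 had 11600, 10800 and 17400 against 62000, 44500 and 52200 (-2.01 ± 0.21, adjusted p = 5.88e-05). In these genes every library of 1 group lay below every library of the other. C30H6.5 had 58.3, 84.2 and 71.5 against 751, 880 and 824 (-3.52 ± 0.19, adjusted p = 1.85e-07). The muscle LIM protein gene mlp-1 fell by 3.19 on this scale and by 0.78 in the pooled values, which count the whole gene. The RNA-binding regulators mex-3, of the germ line and early embryo, mbl-1 and exc-7 also fell, by 0.61, 0.63 and 0.87 (adjusted p = 0.00885, 0.0205 and 0.0401).

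Higher genes included members of the sarcomere and moulting lists. B0348.2 had 220, 292 and 483 scaled reads in ints-4(RNAi) with cadmium and 35.8, 17.2 and 15.3 in numr-1/2(RNAi) with cadmium (3.87 ± 0.38, adjusted p = 4.14e-05). The gene acsd-1, of tryptophan breakdown, had 190, 148 and 192 against 64.6, 35.2 and 31.5 (2.07 ± 0.31, adjusted p = 0.000706), and ugt-39 had 289, 180 and 201 against 57.7, 57.1 and 63.0 (1.88 ± 0.25, adjusted p = 0.00034). Groups again did not overlap. The apical matrix genes let-653 and fbn-1 rose by 1.40 and 1.62, with noah-1 and mlt-4 also higher, so 4 of 8 tested moulting genes were called. These 8 are a part of the list. In the pooled values of all 43 moulting genes, 12 were at least 2-fold lower and 7 higher, with a median of -0.30. Of 5 sarcomere genes 3 were called, lev-11 at 0.77, tnt-4 at 0.95 and tnt-3 at 1.08, but tnt-3 stood at -0.11 in the pooled values. The splicing factors rnp-6 and hrpf-1 rose by 0.72 and 0.62, and of 19 splicing factors tested 4 (21.1%) were called, 2 in each direction, a share near the 18.9% of all genes.

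Many of the same genes differed in expression without cadmium. The values without cadmium were used to link the tables and to select detected genes, so the comparisons are not fully separate, although within a gene the link cancels but for a shift with an SD of 0.0026 between genes on the log2 scale. Of the 2575 genes at least 2-fold higher with cadmium, 1746 (67.8%, and 50.2% of the 3480 higher without) were also higher without it. Of the 1809 lower with cadmium, 1101 (60.9%, and 54.4% of the 2025 lower without) were lower without it. Genes that turned round numbered 69 and 100. Across 16509 genes with a value of at least 10 in either group the correlation of the log2 differences was 0.787, as a description over genes that are not independent replicates. The difference in the sum of vitellogenins was 9910 against 72100 with cadmium and 18500 against 389000 without, and the summed snRNA value of ints-4(RNAi) was 7130 with cadmium and 12000 without.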

How the data were processed

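Total RNA of whole worms was sequenced from 18 oligo(dT) libraries, 3 per group, as paired reads. The deposited expression signal is a read count per gene that the authors made with HISAT2 2.1.0 and HTSeq 0.6.1, pooled over the 3 libraries of a group and scaled within each comparison, so per-library depth of expression is unknown; their notes also name Cufflinks 2.1.1. The deposited splicing cells join inclusion and skipping read counts of 3 libraries, which rMATS counted for the authors. Columns of fold changes, p-values, FDR and level differences by DEGSeq and rMATS hold the authors' own comparisons and were not used. No source used here names the genome build; 94.1% of 23706 exon ends of the events match WBcel235, from which annotation was taken.

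Many cells had lost their commas. Of 7469 cell pairs of these groups, 3289 kept them, 2752 had 1 split that gives the deposited inclusion levels, and 1425 with several and 3 with no such split were left out. Where 2 or more tables gave a cell pair, 5537 of 5537 were equal. In 5 tables, 15 columns said to hold ints-4(RNAi) repeat control(RNAi) with cadmium and were not used. A library number is its position in the cell.

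Events with at least 10 reads in all 6 libraries were tested in a quasi-binomial fit, with dispersion moderated in limma 3.58.1 (R 4.3.3), two-sided, and 1772 of 1788 such events could be tested, the others showing a single form within each group. Gene reads, those of a gene's event with the most reads, were scaled by the median of ratios and fitted with limma, and p-values were adjusted over all events or genes after Benjamini and Hochberg. Expression was linked as (ints-4 with cadmium over ints-4) times (ints-4 over control), over the same product for numr-1/2, with no pseudocount and no test. Tables were read in Python 3.11.15 with pandas 2.3.3 and NumPy 2.4.6. Scripts were tested on simulated data. Other tests, read minimums, scalings, pseudocounts and filters and leaving out each library were tried. Members, gene lists and the rule for named genes were chosen with earlier results of these data known. The rule took the targeted genes, the 8 highest and 8 lowest genes at 100 or more in 1 group, up to 4 members of each list at 2-fold (the 2 with the highest value where none reached it), the 6 highest and 6 lowest called gene reads, the 12 largest called events with at least 20 reads and no overlap, up to 3 more of each type, and events of R02F2.1, M4.1 and cdka-1. Called list members in the gene read test, neighbours of snRNA genes and interaction events were named after their values were seen.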

Additional observations from a re-analysis of the deposited data

Results flagged for a closer look

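At 5 of 1497 events the difference between the knockdowns itself differed with and without cadmium by the interaction test over 12 libraries. R02F2.1, an alternative 3′ splice site, differed by -5.1 points with cadmium and by -26.4 without (adjusted p = 2.27e-06), and was called in all 12 fits that left out 1 library, with a highest adjusted p of 2.46e-05. For F08B12.4, a pair of mutually exclusive exons on chromosome X, the difference was 2.2 points with cadmium and 18 without (adjusted p = 6.93e-10, at most 3.6e-08 with 1 library left out). Its level was 48.7%, 51.7% and 49.6% in ints-4(RNAi) with cadmium and 45.3%, 50.9% and 47.1% in numr-1/2(RNAi) with cadmium, and on average 51.5% in ints-4(RNAi) and 33.5% in numr-1/2(RNAi) without. For a cassette exon of 75 bases of eps-8, an actin regulator, the difference was -6.3 points with and 21.9 without cadmium (adjusted p = 0.00529), and the adjusted p was 0.0541 without ints-4(RNAi) library 3. For a cassette exon of 39 bases of nas-4, an astacin metalloprotease gene, it was -4.8 with and 41.1 without (adjusted p = 0.023). That call held in 8 of 12 such fits, with an adjusted p of 0.134 without ints-4(RNAi) with cadmium library 3, and had as few as 21 reads in a library. Libraries of numr-1/2(RNAi) without cadmium scattered widely at this exon, with a mean of 56.7% and an SD of 29.1 points. For unc-87, an actin-binding protein of muscle, an exon of 548 bases was included at 0.4% and 0.2% with cadmium and the differences were 0.1 and -0.1 points (adjusted p = 2.27e-06), from 5574 to 8425 reads in a library.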

How the results depend on the processing

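The count of called events was 189, and 84 for alternative 3′ sites lower in ints-4(RNAi) with cadmium. Limma on the log2 ratio with no trend called 0 and 0, and using only cells that kept their commas gave 28 and 16, with 648 events left to test. A minimum of 20 reads (184), of 1 read (194), dispersion from all groups (158) and the trended limma fit (151, chosen after seeing the data) stayed within 1.5 times. Leaving out 1 library gave 138 to 172 events and 64 to 79 alternative 3′ sites lower, and 89 events, 50 of them alternative 3′ sites, were called in each of these fits. Interaction calls ranged from 3 to 17 with 1 of 12 libraries left out, 3 without ints-4(RNAi) library 3 and 17 without ints-4(RNAi) with cadmium library 3. Gene read calls, 235, ranged from 146 to 267 with 1 library left out. Genes at least 2-fold higher numbered 2010 to 2700 and lower 1483 to 2068 over 5 alternatives. Among the named events and genes, no called value reversed under the alternatives run. Signs of the other called events and genes were not compared across alternatives. Of named events that were not called, cdka-1 turned from 1.7 points to -11.3 without numr-1/2(RNAi) with cadmium library 1 and to -8.8 without ints-4(RNAi) with cadmium library 2, and nas-4 from -4.8 to 0.6 without ints-4(RNAi) with cadmium library 3. Of 355 values of named events under alternatives other than the untrended limma, 324 kept their side of the threshold, 30 lost it and 1 gained it; under the untrended limma 29 lost it. The causes were not tested. No paired analysis was possible because the reads carry no replicate number of the labels.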
